A study of Mus musculus with 6 samples.

Results

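The collagen genes of IngWAT, the inguinal white fat pad that lies under the skin of the mouse, were taken as every gene whose symbol is Col, a type number, the letter a and a chain number. There were 44 such genes among the 34745 genes counted, and they were split by textbook class into 11 fibrillar, 8 basement membrane, 9 fibril-associated and 16 other collagens. RNA-seq had been done on IngWAT of 3 SAKI mice and 3 WT mice. SAKI mice carried LSL-Slc35d3, a Slc35d3 transgene that stays silent until Cre removes a stop sequence, together with Cre driven by the adiponectin promoter, which acts in adipocytes. WT mice carried the Slc35d3 alleles without Cre, so the effect of Cre alone and that of the transgene cannot be told apart. All 6 were male, ate a normal chow diet (NCD, 10 kcal% fat) for 10 weeks that began at an age of 6 weeks, and were taken at 16 weeks after perfusion with phosphate-buffered saline.

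Collagens are the main structural proteins of the extracellular matrix, and each molecule is wound from 3 chains that may come from different genes. Fibrillar collagens such as types I and III form the cables of connective tissue and are made in fat mostly by fibroblasts and adipocyte progenitors, while type IV collagen forms a sheet-like network in the basement membrane that surrounds each adipocyte and each vessel. Fibril-associated collagens decorate the cables, and type VI collagen forms beaded microfilaments that are abundant around adipocytes.

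The libraries held 15354161 to 18787036 counts, and levels are given as CPM, the counts scaled to library size with TMM factors. Slc35d3 itself was at 745, 793 and 770.3 CPM in SAKI mice, against 73.3, 82.1 and 74.4 CPM in WT mice, so the labels of all 6 libraries held for the targeted gene. The WT libraries were not alike. On a principal component that held 50.7% of the variance, the SAKI libraries lay at 19.0 to 22.0, WT 2 lay beside them at 17.7, and WT 1 and WT 3 lay at -33.1 and -47.5. The share of counts from mitochondrial genes also set WT 1 and WT 3 apart, with 13.1% to 15.9% in the SAKI libraries, 13.8% in WT 2, 7.31% in WT 1 and 8.78% in WT 3. Collagen results are given with and without WT 2, which was singled out after the data were seen. In bulk tissue, fewer cells of a type and less RNA per cell cannot be told apart.

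The collagens did not differ as 1 block between SAKI and WT mice. The main basement membrane chains Col4a1, Col4a2 and Col18a1, the fibrillar chain Col5a3 and the type VI chains Col6a2 and Col6a3 were lower in each SAKI library than in each WT library, whereas Col3a1, Col1a1, Col1a2, Col14a1 and the minor type IV chains Col4a3, Col4a4 and Col4a5 were high in the SAKI libraries and WT 2 and low in WT 1 and WT 3. With all 6 libraries, edgeR's quasi-likelihood test with Benjamini-Hochberg adjustment called 0 of the 36 collagens that passed the filter on low counts. Over all genes it called 5 of 15400, or 0.0325%. At an unadjusted p under 0.05 the fit gave 0 collagens higher, where 8.36% of all genes were, and 8 lower (22.2% of 36), where 9.99% of all genes were. DESeq2 called 3 collagens lower in SAKI mice (Col18a1, Col5a3 and Col6a3) and 0 higher, of 35 to which it gave an adjusted p, beside 2.86% of all genes lower and 2.13% higher. All 3 SAKI values lay above all 3 WT values for 4 collagens (11.1% of 36, against 13.0% of all genes) and below them for 9 collagens (25.0%, against 12.4% of all genes). The other 23 overlapped.

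The values without WT 2 compare 3 SAKI with 2 WT libraries. Since WT 2 was singled out because its expression lay beside that of the SAKI libraries, its omission favours calls over the genes as a whole, and these p-values describe the remaining libraries and are no independent evidence of a difference between SAKI and WT mice. Over all genes the omission gave 1163 called higher and 1435 lower. Among the collagens, edgeR called 17. It called 12 higher in SAKI mice (33.3% of 36, against 7.41% of all genes tested) and 5 lower (13.9%, against 9.14%). The SAKI values then lay wholly above the WT values for 16 collagens (44.4%, against 26.3% of all genes) and wholly below for 10 (27.8%, against 26.5%). Leaving out any of the other 5 libraries gave 0 collagens called. The median log2 fold change of SAKI over WT over the collagens tested was 0.22 with all libraries and 0.29 without WT 2, beside a median of all genes of -0.0035 and 0.0045. By class, the median was 0.39 for fibrillar, 0.01 for basement membrane, -0.13 for fibril-associated and 0.06 for other collagens. Within every class the fold changes ran in both directions, from -0.48 to 0.83 for fibrillar and from -0.83 to 1.37 for basement membrane collagens. Over the alternatives tried, the smallest adjusted p of the 17 genes lay between 0.00109 and 0.0385, and the largest between 0.494 and 0.865.

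**Figure D1:**
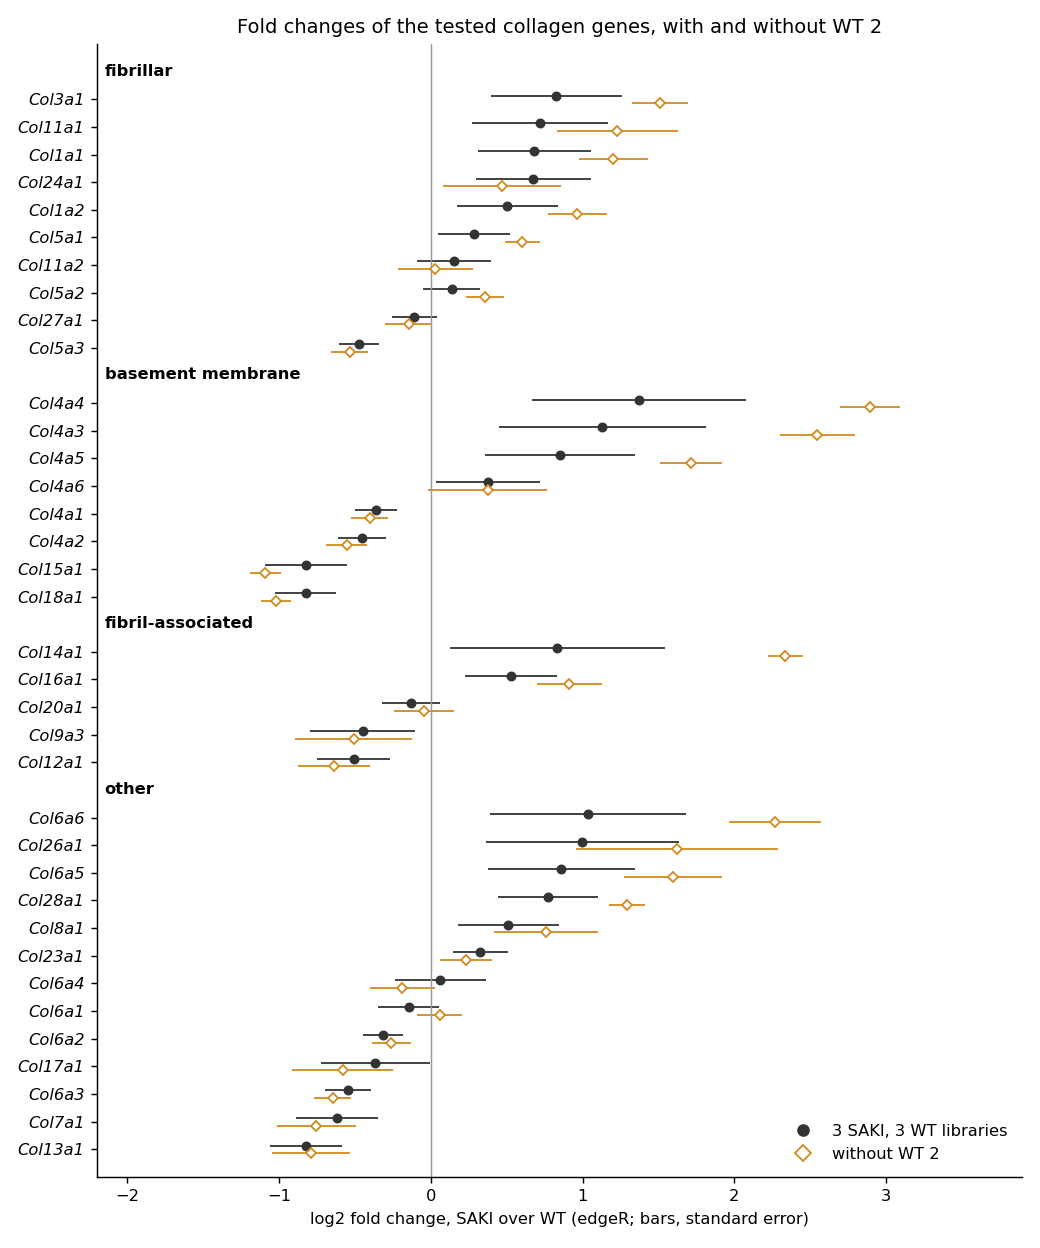
The log2 fold change of SAKI over WT (edgeR, with its standard error) is plotted for each of the 36 tested collagens, grouped by class, with all 6 libraries as filled circles and without WT 2 as open diamonds. Col4a4 moved most between the fits, at 1.37 with all libraries and 2.90 without WT 2, while Col5a3, at -0.48 and -0.54, and Col4a1, at -0.36 and -0.40, stayed close.

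Among fibrillar collagens, types III and I, whose chains build the thick fibrils of connective tissue, were the most abundant transcripts. Col3a1, the only chain of type III collagen, lies on the plus strand of chromosome 1 from 45311538 to 45349706 (GRCm38, as are all positions of genes here). It was at 488 ± 47.6 FPKM (fragments scaled to gene length and library total) in SAKI mice and 269.6 ± 173 FPKM in WT mice (SD, n = 3 each). By library, Col3a1 was at 5027, 4908 and 5663 CPM in SAKI mice, against 2131, 5139 and 1523 CPM in WT mice. WT 2 lay within the SAKI range and WT 1 and WT 3 lay far below it. With all libraries Col3a1 had a log2 fold change of 0.83 ± 0.43 (SE, the standard error in edgeR; Benjamini-Hochberg adjusted p = 0.344), and 1.51 ± 0.18 (adjusted p = 0.00746) without WT 2. Col1a1 (chr11:94936224-94953042, plus strand), the chain that makes up most of type I collagen, was at 1688, 1610.4 and 2015 CPM in SAKI mice, against 951, 1769 and 591 CPM in WT mice. Its partner chain Col1a2 (chr6:4504814-4541544, plus strand) was at 2094, 2074 and 2274 CPM in SAKI mice, against 1333, 2335 and 873 CPM in WT mice. For both chains of type I collagen the groups overlapped through WT 2 alone. The FPKM ratio of Col1a1 to Col1a2 was 1.88, 1.81 and 2.07 in SAKI mice, against 1.67, 1.77 and 1.58 in WT mice. These ranges did not overlap (exact permutation p = 0.1, two-sided, or 0.25 after Benjamini-Hochberg adjustment over the 10 chain ratios compared). In edgeR, Col1a1 stood at a log2 fold change of 0.68 (adjusted p = 0.363) with all libraries and 1.20 (adjusted p = 0.0215) without WT 2, and Col1a2 had 0.50 (adjusted p = 0.446) and 0.97 (adjusted p = 0.0251) in the same fits.

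Type V collagen, which sits in the core of type I fibrils and limits their width, had chains that differed in direction. Col5a3 (chr9:20770050-20815067, minus strand) was at 397, 353 and 441 CPM in SAKI mice, against 584, 504 and 569 CPM in WT mice. All 3 SAKI values lay below all 3 WT values, WT 2 included. Col5a3 had a log2 fold change of -0.48 ± 0.13 SE with an adjusted p of 0.183 from edgeR and 0.0216 from DESeq2, and it was -0.54 (adjusted p = 0.0328) in edgeR without WT 2. Col5a1, a chain found in nearly all type V molecules, was at 316, 315 and 347 CPM in SAKI mice, against 235, 373 and 195 CPM in WT mice, and Col5a2 was at 385, 364 and 416 CPM in SAKI mice, against 334, 451 and 274 CPM in WT mice. In both genes WT 2 was the highest library of all. For Col5a1 the log2 fold change came to 0.28 (adjusted p = 0.533) with all libraries and 0.60 (adjusted p = 0.0236, edgeR) without WT 2, and for Col5a2 to 0.14 (adjusted p = 0.720) and 0.36 (adjusted p = 0.0977). On the FPKM scale, which corrects for gene length, the ratio of Col5a3 to Col5a1 was 1.60, 1.43 and 1.61 in SAKI mice, against 3.16, 1.72 and 3.71 in WT mice. These ranges did not overlap, and the exact permutation test over the 6 libraries (two-sided) gave p = 0.1, the smallest p that 3 against 3 allow (0.25 after Benjamini-Hochberg adjustment over the 10 chain ratios compared).

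The remaining fibrillar chains were scarce. Col27a1, Col11a2, Col11a1 and Col24a1, which are known mainly from cartilage, bone and other skeletal tissue, averaged between 25.1 and 1.67 CPM in SAKI mice and between 27.0 and 1.04 CPM in WT mice. All 4 overlapped between the groups, and none was called with or without WT 2. Col2a1, the fibrillar collagen of cartilage, had 2, 3 and 5 counts in the SAKI libraries and 0 in each WT library, which is too few to test, and a count of 0 allows up to 3 counts by counting error.

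**Figure D2:**
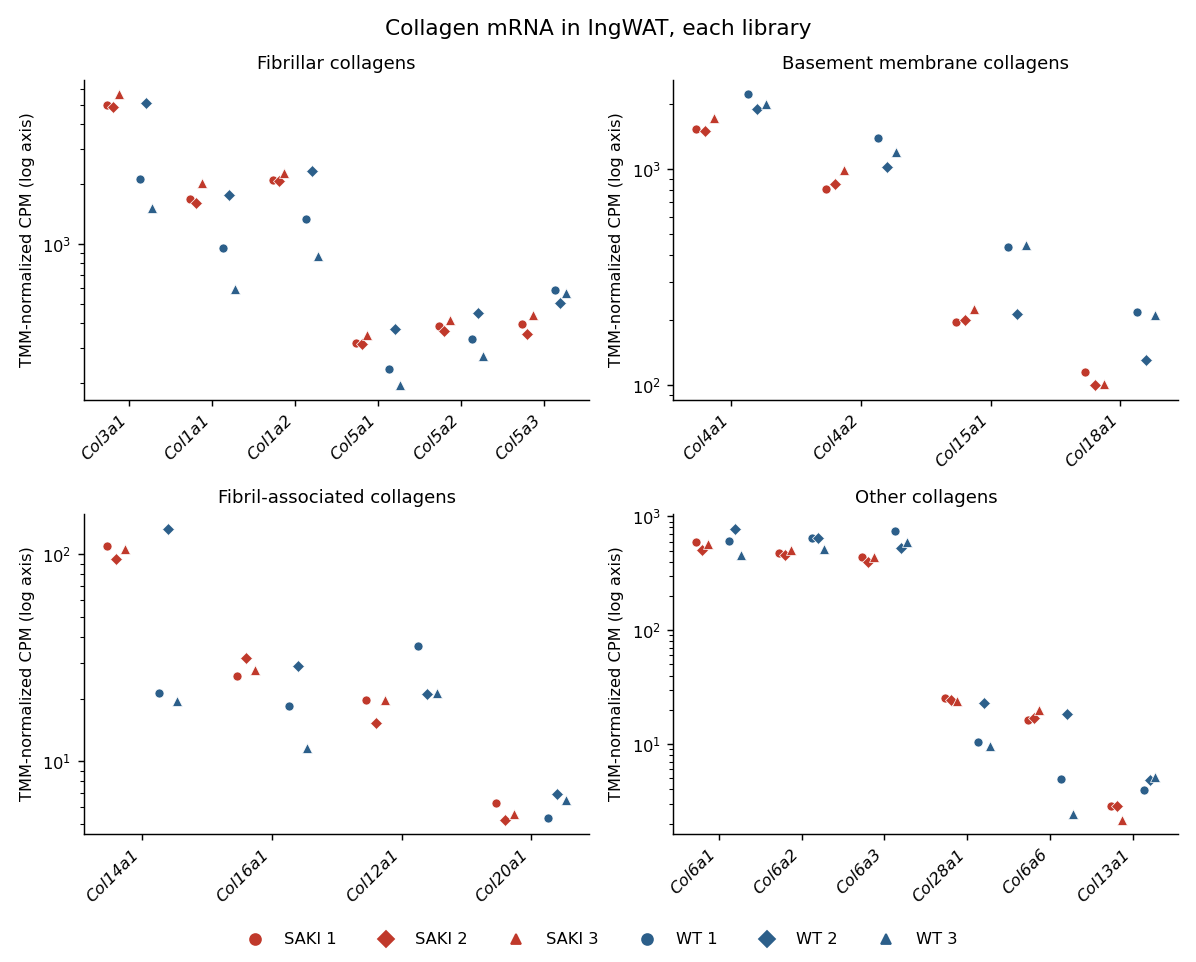
TMM-normalized CPM (log axis) of the better expressed or best separated collagens of each class is plotted for each library, SAKI in red and WT in blue, with circles, diamonds and triangles for mice 1, 2 and 3. The diamond of WT 2 sits among or next to the SAKI points for Col3a1, Col1a1 and Col28a1, but with the other WT points for Col5a3, Col4a1 and Col6a3.

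The promoter windows of the main fibrillar chains are shown because Col3a1 and Col1a2 were high in the same libraries. They run from 250 bases before to 50 bases after the RefSeq start in build GRCm38.p6, with capitals marking the CCAAT box (CCAAT), the GC box (GGGCGG) and the TATA box (TATAAA), each searched on both strands. The Col3a1 window is chr1:45311288-45311587 on the plus strand and the Col1a2 window is chr6:4505368-4505667 on the plus strand, where the RefSeq start of Col1a2 lies downstream of the gene start in the files.
Col3a1: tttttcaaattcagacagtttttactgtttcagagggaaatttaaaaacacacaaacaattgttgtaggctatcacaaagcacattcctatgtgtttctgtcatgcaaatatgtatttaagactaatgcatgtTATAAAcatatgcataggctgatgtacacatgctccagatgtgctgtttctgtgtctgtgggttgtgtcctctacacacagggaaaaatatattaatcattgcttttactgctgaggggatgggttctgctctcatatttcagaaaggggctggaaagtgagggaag
Col1a2: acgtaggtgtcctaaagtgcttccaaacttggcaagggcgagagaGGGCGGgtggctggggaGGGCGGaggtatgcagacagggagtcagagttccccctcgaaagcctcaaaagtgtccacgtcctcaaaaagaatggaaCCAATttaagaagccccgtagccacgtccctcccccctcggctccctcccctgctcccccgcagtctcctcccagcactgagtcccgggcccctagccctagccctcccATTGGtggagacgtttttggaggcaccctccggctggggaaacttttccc
The windows have little in common in these letters. The Col3a1 window had a GC content of 37.7% and 1 TATA box, and the Col1a2 window had a GC content of 61% with 2 GC boxes and 2 CCAAT boxes. Of 38 windows found for 35 of the 44 collagen genes, 23 held a GC box (60.5%, against 35.7% of all 32851 windows), 13 a CCAAT box (34.2%, against 37.4%) and 5 a TATA box (13.2%, against 13.6%). A match in letters is a description of the window only.

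The main basement membrane collagens lay lower in SAKI mice. Col4a1 and Col4a2 encode the chains of the type IV network found in almost every basement membrane. Col4a1 was at 1527, 1498 and 1725 CPM in SAKI mice, against 2211, 1897 and 1985 CPM in WT mice. Col4a2 was at 803, 848 and 984 CPM in SAKI mice, against 1387, 1024 and 1201 CPM in WT mice. Neither gene overlapped between the groups, and WT 2 was the lowest WT library in each. In log2 fold change this came to -0.36 ± 0.14 SE (adjusted p = 0.247) for Col4a1 and -0.45 ± 0.16 (adjusted p = 0.226) for Col4a2 from edgeR with Benjamini-Hochberg adjustment. Without WT 2 it was -0.40 (adjusted p = 0.0695) for Col4a1 and -0.56 (adjusted p = 0.0385) for Col4a2. The ratio of Col4a1 to Col4a2 in FPKM was 1.85, 1.72 and 1.71 in SAKI mice, against 1.55, 1.80 and 1.61 in WT mice, and these ranges overlapped.

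Types XV and XVIII, the basement membrane collagens with long sugar side chains, had log2 fold changes of larger size than Col4a1 and Col4a2. Col18a1 (chr10:77052178-77166548, minus strand), whose C-terminal fragment is the angiogenesis inhibitor endostatin, was at 115, 99.7 and 100.4 CPM in SAKI mice, against 218, 131 and 209 CPM in WT mice. The groups did not overlap, and WT 2 lay nearest to the SAKI libraries. The difference was a log2 fold change of -0.83 (standard error 0.20) with an adjusted p of 0.170 from edgeR, the smallest of any collagen, and 0.00833 from DESeq2. Without WT 2 it was -1.02 (adjusted p = 0.00449, edgeR). Part of Col18a1 lies over Slc19a1 on the other strand, and since the strand setting of the counting is not given, reads of the shared stretch cannot be assigned to either gene. Col15a1 (chr4:47208161-47313167, plus strand) was at 195, 199 and 224 CPM in SAKI mice, against 433, 213 and 445 CPM in WT mice. WT 2 fell within the SAKI range. Col15a1 had a log2 fold change of -0.82 ± 0.27 SE (adjusted p = 0.211, edgeR) with all libraries and -1.09 ± 0.10 (adjusted p = 0.00393) without WT 2.

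The minor type IV chains were low in WT 1 and WT 3 only, with WT 2 near or within the SAKI range and no call with all libraries. Col4a3, Col4a4 and Col4a5 encode the chains of the network best known from the kidney filter, and together with Col6a5, Col6a6 and Col28a1 they were singled out after their values were seen. Col4a4 was at 13.1, 13.5 and 12.3 CPM in SAKI mice, against 1.96, 11.5 and 1.51 CPM in WT mice. Col4a3 was at 6.26, 7.57 and 7.29 CPM in SAKI mice, against 1.35, 7.26 and 1.05 CPM in WT mice. Col4a5 was at 31.6, 34.5 and 29.6 CPM in SAKI mice, against 11.8, 33.7 and 7.59 CPM in WT mice. Col4a4 did not overlap between the groups, by a small margin over WT 2, whereas Col4a3 and Col4a5 overlapped through WT 2. With all libraries the log2 fold changes were 1.37 for Col4a4, 1.13 for Col4a3 and 0.85 for Col4a5, with adjusted p-values of 0.340, 0.407 and 0.392 from edgeR. Without WT 2 they were 2.90 (adjusted p = 0.00199), 2.55 (adjusted p = 0.00432) and 1.72 (adjusted p = 0.00694). Col4a6, the remaining chain, was at 1.56, 0.970 and 1.03 CPM in SAKI mice, against 1.10, 0.908 and 0.720 CPM in WT mice, and the groups overlapped. In FPKM, Col4a1 exceeded Col4a5 by 55.8, 50.2 and 67.2 times in SAKI mice, against 216, 65.1 and 302 times in WT mice. The FPKM ratio of Col4a3 to Col4a4 was 0.478, 0.560 and 0.595 in SAKI mice, against 0.688, 0.629 and 0.696 in WT mice. Its ranges did not overlap (exact permutation p = 0.1, two-sided, or 0.25 after Benjamini-Hochberg adjustment over the 10 ratios).

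**Figure D3:**
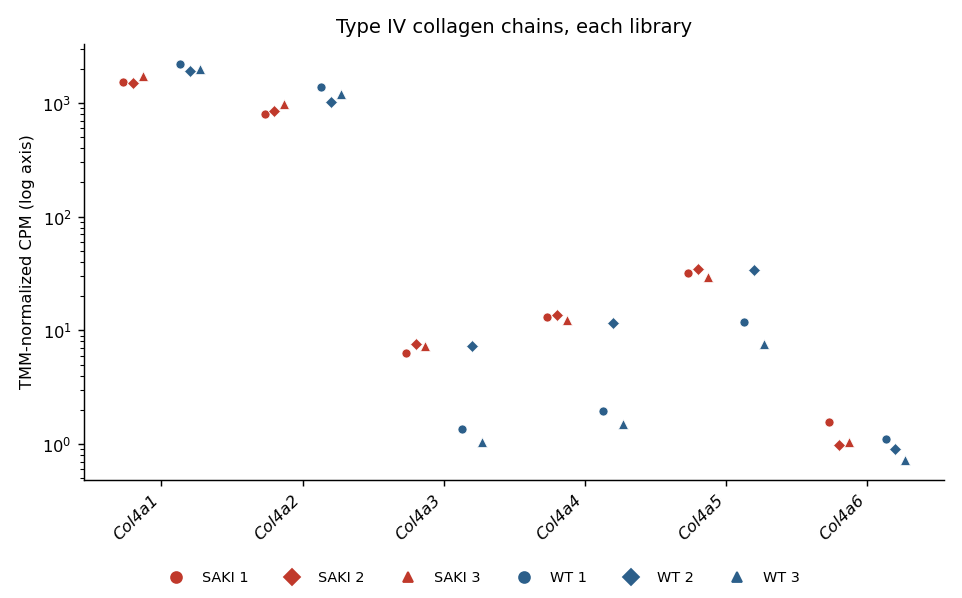
TMM-normalized CPM (log axis) of the 6 type IV chains is plotted for each library, with SAKI in red to the left of WT in blue and circles, diamonds and triangles for mice 1, 2 and 3. Col4a1 and Col4a2 are lower in every SAKI library than in every WT library, while for Col4a3, Col4a4 and Col4a5 the points of WT 1 and WT 3 lie well below the other 4.

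Type IV genes sit head to head in the genome, each couple with its starts close together. On chromosome 8 of GRCm38, Col4a1 on the minus strand starts at 11312826 and Col4a2 on the plus strand starts at 11312805, so the genes overlap by 22 bases. On chromosome 1, Col4a4 on the minus strand starts at 82586849 and Col4a3 on the plus strand starts at 82586921, with 71 bases between them. Col4a6 and Col4a5 on the X chromosome lie 1308 bases apart. The log2 fold changes had the same sign within each of these couples. They were negative for Col4a1 and Col4a2 and positive for Col4a4 and Col4a3 and for Col4a6 and Col4a5. The sign of Col4a6 is uncertain, since it had only 11 to 24 counts a library and its groups overlapped. Its log2 fold change was 0.38 ± 0.34 SE (adjusted p = 0.573, edgeR). The windows that hold both starts are shown with the motifs in capitals as above, chr8:11312555-11312854 on the plus strand for Col4a2 and chr1:82586800-82587099 on the minus strand for Col4a4.
Col4a2: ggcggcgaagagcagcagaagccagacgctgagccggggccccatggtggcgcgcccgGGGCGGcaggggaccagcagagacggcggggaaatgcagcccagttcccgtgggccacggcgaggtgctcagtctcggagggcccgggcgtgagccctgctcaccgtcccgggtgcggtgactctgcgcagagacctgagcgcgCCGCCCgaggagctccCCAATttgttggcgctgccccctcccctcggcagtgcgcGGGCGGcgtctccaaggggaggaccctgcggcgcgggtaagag
Col4a4: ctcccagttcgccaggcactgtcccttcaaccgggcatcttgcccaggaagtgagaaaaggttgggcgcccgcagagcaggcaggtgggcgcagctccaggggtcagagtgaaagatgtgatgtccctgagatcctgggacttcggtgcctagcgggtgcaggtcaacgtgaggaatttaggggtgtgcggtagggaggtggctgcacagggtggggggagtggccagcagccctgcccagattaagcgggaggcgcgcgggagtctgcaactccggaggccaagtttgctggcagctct
The Col4a2 window had a GC content of 73.7%, 1 CCAAT box and 3 GC boxes, and the Col4a4 window had a GC content of 63.3% and none of the 3 motifs.

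Fibril-associated collagens gave few transcripts. Col14a1 (chr15:55307750-55520803, plus strand), which binds type I fibrils and marks fibroblasts, was the most abundant, and it was at 109.6, 94.6 and 106 CPM in SAKI mice, against 21.4, 133 and 19.6 CPM in WT mice. WT 2 was above every SAKI library, while WT 1 and WT 3 were the lowest. Col14a1 stood at a log2 fold change of 0.83 ± 0.71 (adjusted p = 0.546) with all libraries and 2.34 ± 0.11 (adjusted p = 0.00109) without WT 2, both from edgeR. Col16a1 was at 25.7, 31.7 and 27.6 CPM in SAKI mice, against 18.5, 28.7 and 11.7 CPM in WT mice, and again only WT 2 reached the SAKI range. Its fold change on the log2 scale was 0.53 (adjusted p = 0.382) and, without WT 2, 0.91 (adjusted p = 0.0372, edgeR). Col12a1, known from dense connective tissue such as tendon, was at 19.9, 15.3 and 19.8 CPM in SAKI mice, against 35.9, 21.1 and 21.3 CPM in WT mice. The groups did not overlap, though WT 1 stood apart from the other WT libraries, and the log2 fold change was -0.51 (adjusted p = 0.307, edgeR).

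Of the other members of that class, Col20a1 was at 6.32, 5.24 and 5.58 CPM in SAKI mice, against 5.34, 6.94 and 6.48 CPM in WT mice. Its counts are uncertain, because the annotated gene BX649560.1 lies within it on the same strand and had counts of its own at 8.43 to 8.80 CPM in SAKI mice, against 6.20 to 9.79 CPM in WT mice. Col9a3, a cartilage chain, was at 0.782, 1.68 and 1.14 CPM in SAKI mice, against 1.60, 1.49 and 1.83 CPM in WT mice, and the groups overlapped.

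Among the other collagens, the 3 main chains of type VI collagen, which assemble with each other, were the most abundant and differed in how far they lay apart. Col6a3 (chr1:90765923-90843971, minus strand), the largest chain and the source of the fragment endotrophin, was at 441, 402 and 441 CPM in SAKI mice, against 744, 532 and 600.1 CPM in WT mice. Col6a2 (chr10:76595762-76623630, minus strand) was at 477, 461 and 511 CPM in SAKI mice, against 645, 645 and 515 CPM in WT mice. Col6a1 (chr10:76708792-76726168, minus strand) was at 593, 506 and 574 CPM in SAKI mice, against 609.9, 779.9 and 462 CPM in WT mice. Col6a3 and Col6a2 did not overlap between the groups, though Col6a2 in WT 3 was only just above SAKI 3, and Col6a1 overlapped. In log2 fold change Col6a3 stood at -0.55 (standard error 0.15) with an adjusted p of 0.184 from edgeR and 0.0200 from DESeq2, and -0.65 (adjusted p = 0.0221, edgeR) without WT 2. For Col6a2 it was -0.32 (adjusted p = 0.270) and -0.26 (adjusted p = 0.196) in the same fits. Col6a1 had -0.15 (adjusted p = 0.713), which turned to 0.06 (adjusted p = 0.804) without WT 2. The FPKM ratio of Col6a3 to Col6a1 was 0.246, 0.263 and 0.255 in SAKI mice, against 0.404, 0.226 and 0.430 in WT mice, so it overlapped through WT 2.

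The minor type VI chains and type XXVIII, a related beaded-filament collagen known from nerve, were likewise high in the SAKI libraries and WT 2. Col6a6 was at 16.1, 17.0 and 20.0 CPM in SAKI mice, against 4.91, 18.5 and 2.42 CPM in WT mice. Col6a5 was at 12.1, 24.6 and 22.3 CPM in SAKI mice, against 6.44, 19.5 and 6.61 CPM in WT mice. Col28a1 was at 25.2, 24.5 and 24.1 CPM in SAKI mice, against 10.5, 23.1 and 9.62 CPM in WT mice. Col28a1 did not overlap between the groups, with WT 2 just under the SAKI range, and the other genes of this set overlapped through WT 2. With all libraries the log2 fold changes were 1.04, 0.86 and 0.77 for Col6a6, Col6a5 and Col28a1, with adjusted p-values from 0.274 to 0.420 (edgeR). Without WT 2 they were 2.27 (adjusted p = 0.00926), 1.60 (adjusted p = 0.0252) and 1.29 (adjusted p = 0.00344). Col6a4, a further minor type VI chain, was at 11.3, 9.12 and 11.0 CPM in SAKI mice, against 14.4, 6.16 and 9.56 CPM in WT mice, and the groups overlapped.

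Transmembrane and anchoring collagens were low. Col13a1, a transmembrane collagen, was at 2.87, 2.85 and 2.17 CPM in SAKI mice, against 3.93, 4.86 and 5.17 CPM in WT mice, with no overlap. The fit of edgeR put it at a log2 fold change of -0.83 ± 0.24 SE (adjusted p = 0.188). Col7a1, the anchoring fibril collagen of skin, lay lower without overlap at 2.52 to 4.11 CPM in SAKI mice, against 4.15 to 6.07 CPM in WT mice. Col23a1, another transmembrane collagen, lay higher without overlap at 9.05 to 10.7 CPM in SAKI mice, against 6.61 to 8.96 CPM in WT mice. Col26a1 did so too, at 0.879 to 1.04 CPM in SAKI mice, against 0.0655 to 0.843 CPM in WT mice. Col8a1, a network collagen of vessels and the cornea, and Col17a1, a hemidesmosome collagen of skin, overlapped. None of these 6 was called with or without WT 2.

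Of the 44 genes, 8 did not pass the filter on low counts. Besides Col2a1 these were Col9a1, Col9a2, Col19a1 and Col22a1 of the fibril-associated class and Col8a2, Col10a1 and Col25a1 of the other class. None of them exceeded 13 counts in any library. Col10a1, the collagen of hypertrophic cartilage, had 1 count in all, in WT 3.

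Summed over the 44 genes, the share of the transcriptome held by collagen overlapped between the groups, while its make-up by class did so only in part. The collagens held 0.394%, 0.401% and 0.489% of all FPKM in SAKI mice, against 0.478%, 0.468% and 0.339% in WT mice. Of all counts they held 1.41% to 1.65% in SAKI mice, against 0.919% to 1.57% in WT mice. With mitochondrial genes left out, the share of counts was 1.65% to 1.90% in SAKI mice, against 1.01% to 1.82% in WT mice. Fibrillar collagens made up 61.1%, 61.1% and 62.0% of the collagen FPKM in SAKI mice, against 39.5%, 57.1% and 35.8% in WT mice. Basement membrane collagens made up 23.2%, 24.1% and 23.9% in SAKI mice, against 40.8%, 25.2% and 45.1% in WT mice. The SAKI libraries lay within a range of about 1 percentage point in either class, WT 2 lay nearest to that range, and WT 1 and WT 3 lay farther away. The other collagens made up 13.1% to 14.7% in SAKI mice, against 16.6% to 19.2% in WT mice, without overlap, and the fibril-associated collagens 0.948% to 1.08% in SAKI mice, against 0.552% to 1.12% in WT mice. The ratio of Col4a1 to Col3a1 in FPKM, a basement membrane chain over a fibrillar chain, was 0.462, 0.465 and 0.464 in SAKI mice, against 1.58, 0.562 and 1.98 in WT mice, with no overlap (exact permutation p = 0.1, two-sided; 0.25 after Benjamini-Hochberg adjustment over the 10 ratios).

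**Figure D4:**
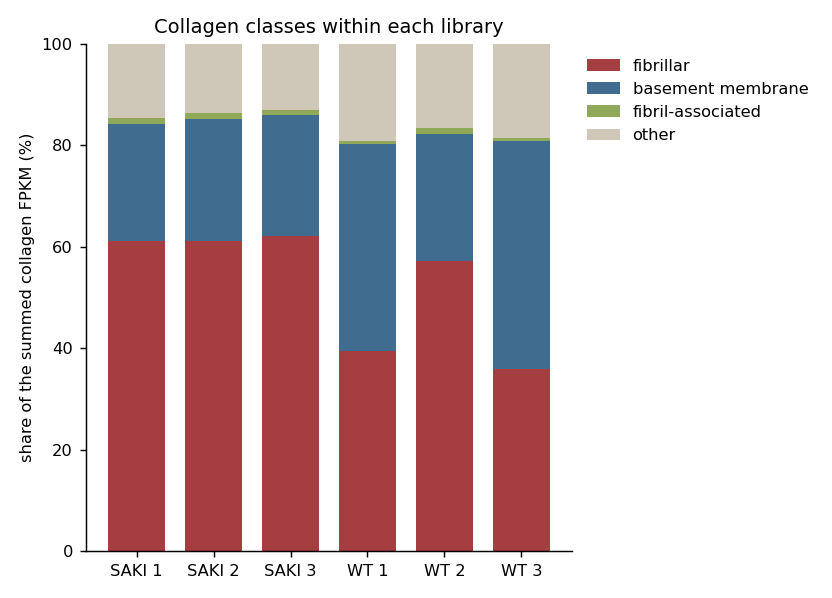
The share of the summed collagen FPKM held by each class (percent, stacked to 100) is plotted for each library, SAKI to the left of WT. Fibrillar collagens held 61.1% to 62.0% in the SAKI libraries and 57.1% in WT 2, but 39.5% in WT 1 and 35.8% in WT 3, where basement membrane collagens held 40.8% and 45.1%.

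Genes that fold, export, cross-link, organize or bind collagen were read from 6 lists with 98 symbols, of which 90 were tested. edgeR with Benjamini-Hochberg adjustment called 0 of the 90. At an unadjusted p under 0.05, 3 were higher in SAKI mice (8.36% of all genes were) and 23 lower (9.99% of all genes). Without WT 2, edgeR called 15 higher and 21 lower, beside 7.41% and 9.14% of all genes. DESeq2 called 14 lower and 0 higher, beside 2.86% and 2.13%. The median log2 fold change over the 90 was -0.02.

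For collagen folding and hydroxylation 0 of 19 were called, 12 of 19 lay below 0, and their median stood at -0.20 on the log2 scale. Plod3, a lysyl hydroxylase that also adds sugars to collagen, was at 66.8, 70.9 and 74.8 CPM in SAKI mice, against 105, 88.3 and 96.2 CPM in WT mice. Plod2, the lysyl hydroxylase of collagen telopeptides, was at 13.9, 16.6 and 15.2 CPM in SAKI mice, against 23.7, 21.01 and 34.6 CPM in WT mice. Crtap, a part of the prolyl 3-hydroxylase complex, was at 38.8, 34.1 and 36.0 CPM in SAKI mice, against 59.5, 42.0 and 50.4 CPM in WT mice. All 3 genes lay lower in each SAKI library than in each WT library, with adjusted p-values of 0.170, 0.175 and 0.197 from edgeR. For collagen secretion 0 of 10 were called and the median was -0.15. Creb3l1, a membrane-bound transcription factor that drives procollagen genes in bone, was at 14.7, 10.8 and 19.9 CPM in SAKI mice, against 67.2, 22.3 and 58.5 CPM in WT mice. It had a log2 fold change of -1.70 ± 0.42 SE (adjusted p = 0.170 from edgeR and 0.00220 from DESeq2). Its relative Creb3l2 and the coat protein gene Sec24d, which serves export of large procollagen from the endoplasmic reticulum, also lay lower without overlap, with log2 fold changes of -0.60 and -0.47.

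For procollagen processing and cross-linking 0 of 13 were called and the median was 0.17. Loxl1, a lysyl oxidase that cross-links collagen and elastin, was at 75.9, 66.7 and 78.6 CPM in SAKI mice, against 152, 95.1 and 140.0 CPM in WT mice. On the log2 scale it differed by -0.81 (adjusted p = 0.165 from edgeR and 0.00605 from DESeq2). Tgm2, a transglutaminase, and Lox, the main lysyl oxidase, lay lower without overlap at log2 fold changes of -0.47 and -0.36. Among small proteoglycans and fibril organizers 0 of 19 were called, 12 lay above 0, and the median was 0.16. Without WT 2, edgeR called 7 higher (Omd, Ogn, Aspn, Fn1, Dcn, Lum and Abi3bp) and 3 lower (Thbs1, Fbln2 and Dpt). In the same fit 7.41% of all genes were called higher and 9.14% lower. Dcn, decorin, a proteoglycan that binds type I fibrils, was at 1344, 1334 and 1244 CPM in SAKI mice, against 729, 1512 and 548 CPM in WT mice, so that WT 2 was the highest library and WT 1 and WT 3 the lowest. Dcn is not among the 3 genes of smallest p in this list (adjusted p = 0.480 from edgeR with all libraries). Thbs1, thrombospondin, a matrix protein that activates TGF-beta, was at 60.0, 55.2 and 65.3 CPM in SAKI mice, against 372, 109.7 and 470.2 CPM in WT mice. The log2 fold change of Thbs1 was -2.40 ± 0.48 SE (adjusted p = 0.153 from edgeR and 9.19e-06 from DESeq2). Fbln2 and Dpt, matrix proteins that bind fibrils and basement membranes, lay lower without overlap at log2 fold changes of -0.72 and -0.50.

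Of 18 genes listed as partners of the basement membrane collagens 0 were called and 13 lay below 0. There were 7 with an unadjusted p under 0.05, all lower in SAKI mice (9.99% of all genes were lower at that threshold), and the median stood at -0.06. The 7 include Ltbp4 and Sparcl1, which are not core components of the basement membrane. Hspg2, perlecan, the main heparan sulfate proteoglycan of basement membranes, was at 657, 596 and 701 CPM in SAKI mice, against 1039.6, 842 and 1019 CPM in WT mice. On the log2 scale it differed by -0.57 (adjusted p = 0.170 from edgeR and 0.00453 from DESeq2). The laminin chains Lamc3 and Lama5 also lay lower without overlap, at log2 fold changes of -0.73 and -0.51. Of 11 genes listed as collagen receptors 0 were called and the median was 0.16. That list also held Endou, which encodes an endoribonuclease and no collagen receptor, at a log2 fold change of 0.27. Ddr1, a collagen-activated receptor tyrosine kinase, was at 22.7, 25.0 and 20.3 CPM in SAKI mice, against 43.3, 28.9 and 46.2 CPM in WT mice, while Itga2 and Itga1, chains of collagen-binding integrins, had positive log2 fold changes of 1.01 and 0.31. The groups did not overlap for Ddr1 and Itga1 and did for Itga2. Of genes chosen after their values were seen, Fn1, fibronectin, was at 889.7, 841 and 856 CPM in SAKI mice, against 221, 1213 and 163 CPM in WT mice, and Itga11, a fibroblast receptor for fibrillar collagen, was at 22.9, 22.5 and 15.1 CPM in SAKI mice, against 4.11, 24.5 and 4.06 CPM in WT mice. Both had WT 2 above all SAKI libraries and WT 1 and WT 3 below them, as did Col14a1.

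**Figure D5:**
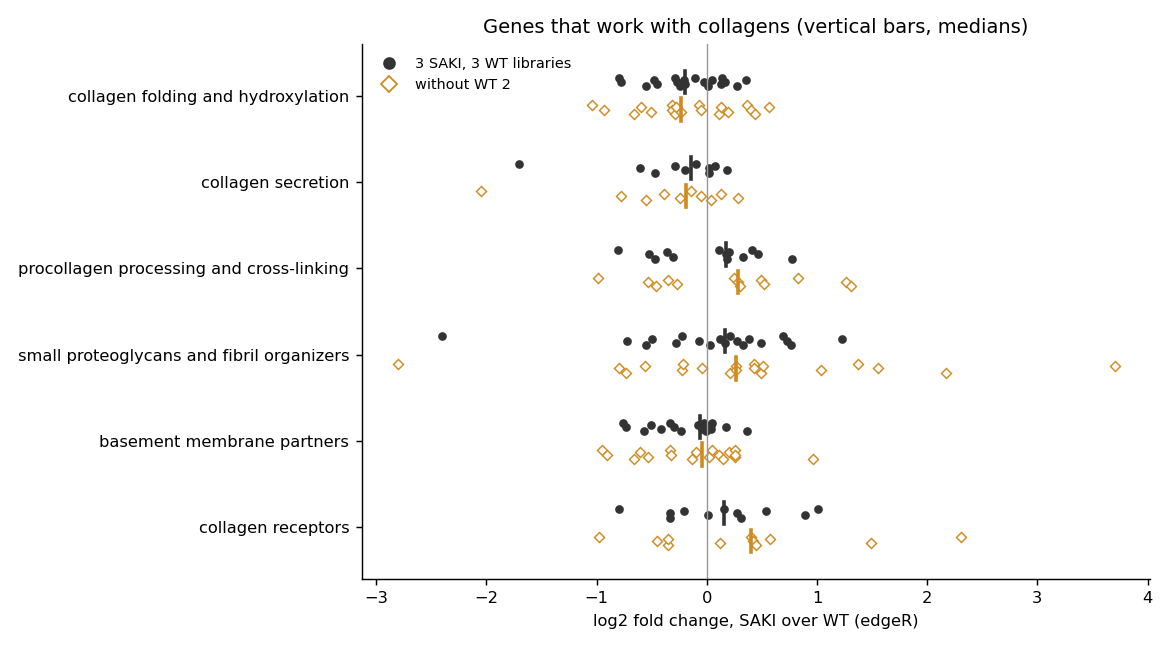
The log2 fold change of SAKI over WT (edgeR) is plotted for each tested gene of the 6 lists, with all libraries as filled circles and without WT 2 as open diamonds, and vertical bars at the medians. The medians lie between -0.20 and 0.17 with all libraries, and the gene farthest to the left is Thbs1 at -2.40.

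The levels of cell type markers are given beside these results. Of 12 macrophage markers 10 lay above 0, and their summed level was 2469 to 2977 CPM in SAKI mice, against 1067 to 2440 CPM in WT mice, with WT 2 the highest WT library. Without WT 2, edgeR called 9 of them higher, beside 7.41% of all genes. Of 16 fibroblast and progenitor markers 12 lay above 0, with a summed level of 11531 to 12705 CPM in SAKI mice, against 11548 to 16613 CPM in WT mice, and 10 of them were called higher and 1 lower without WT 2 (7.41% and 9.14% of all genes). Of the 16, 4 are also in the partner lists. Most of the fibroblast sum came from Gsn, gelsolin, at 8784, 7662 and 7645 CPM in SAKI mice, against 9734, 11925 and 9001 CPM in WT mice. The other 15 markers summed to 3920.1, 3869 and 3908 CPM in SAKI mice, against 2940.4, 4687 and 2547 CPM in WT mice, a sum taken after the data were seen. In that sum WT 2 lay above the SAKI libraries and WT 1 and WT 3 below them, as in Col1a2 and Col14a1. The markers did not all do so. Of the 16, 4 lay below 0, namely Gsn, Dpt, Pdgfra and Ly6a. Dpt was at 638, 672 and 651 CPM in SAKI mice, against 960, 845 and 966 CPM in WT mice. Dcn, also in a partner list, was a large part of the sum, at 1344, 1334 and 1244 CPM in SAKI mice, against 729, 1512 and 548 CPM in WT mice. The macrophage sums were without overlap by a small margin over WT 2. Of 14 endothelial markers 10 lay below 0, with a summed level of 1784 to 1912 CPM in SAKI mice, against 2020.3 to 2183 CPM in WT mice. Of 12 smooth muscle and pericyte markers 11 lay below 0, with a summed level of 1009.9 to 1254 CPM in SAKI mice, against 1337 to 1473 CPM in WT mice. Neither vessel list overlapped between the groups in its summed level, but the members differed. Of the 14 endothelial markers 7, and of the 12 smooth muscle and pericyte markers 4, lay lower in each SAKI library than in each WT library. Over all genes 12.4% did so. Cldn5 was at -1.27 on the log2 scale. Pecam1, Vwf, Kdr, Ptprb, Erg, Rgs5, Mylk and Myh11 overlapped between the groups, at log2 fold changes of -0.05 to 0.02. Without WT 2, edgeR called 1 endothelial marker higher and 3 lower, and 0 smooth muscle and pericyte markers higher and 2 lower. Over all genes that fit called 7.41% higher and 9.14% lower. Of 16 adipocyte markers 15 lay below 0, with a summed level of 31818 to 36324 CPM in SAKI mice, against 35911 to 46384 CPM in WT mice. The tissue thus carried its defining genes in every library. Without WT 2, 0 adipocyte markers were called higher and 2 lower, beside 7.41% and 9.14% of all genes. With all libraries, edgeR called 0 genes of these lists. DESeq2 called 3 adipocyte, 2 smooth muscle and pericyte, 1 endothelial and 1 fibroblast marker lower, beside 2.86% of all genes. It called 1 macrophage and 1 Schwann cell marker higher, beside 2.13% of all genes. Of 16 immediate early genes, which respond to handling of tissue, 15 lay below 0, with a summed level of 526 to 648 CPM in SAKI mice, against 644 to 1107 CPM in WT mice. DESeq2 called 5 of these 16 lower and 0 higher, beside 2.86% and 2.13% of all genes. Without WT 2, edgeR called 4 of them lower and 0 higher, beside 9.14% and 7.41% of all genes. B cell markers summed to 665 to 804 CPM in SAKI mice, against 433 to 775 CPM in WT mice, and Schwann cell markers to 628 to 780.0 CPM in SAKI mice, against 496 to 679 CPM in WT mice. Skeletal muscle markers summed to 410.2 to 2812 CPM in SAKI mice, against 539 to 5853 CPM in WT mice. These sums overlapped between the groups. Cartilage and tendon markers summed to 0.970 to 1.69 CPM in SAKI mice, against 1.17 to 2.75 CPM in WT mice, mesothelium markers to 2.93 to 3.56 CPM in SAKI mice, against 4.09 to 8.84 CPM in WT mice, and epithelial markers to 10.2 to 13.8 CPM in SAKI mice, against 11.9 to 27.0 CPM in WT mice. Matn3, Wt1, Upk1b and Krt15 were at 0 in all 6 libraries. The part of these cell types, of the mitochondrial share and of the immediate early genes in the collagen results was not tested.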

How the data were processed

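IngWAT RNA of 3 SAKI and 3 WT mice had been sequenced. The authors deposited 1 file of raw counts per gene for every library and, over all 6 libraries, an FPKM table, in which each count is divided by gene length and library total. Levels, ratios and class shares between genes in FPKM depend on the lengths used there, which were not checked. Per the labels, reads were handled with HISAT2 (2.0.4), Bowtie2 (2.2.6) and StringTie (1.3.0) on build GRCm38, with no roles stated. The counting tool with its strand setting and annotation release is not given in the sources used here. Per the labels, RNA was extracted with another kit than the Trizol reagent of the study's methods. Library totals ranged from 15354161 to 18787036 counts. Per the labels, every library came from its own mouse.

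The main fit used edgeR 4.0.16 (R 4.3.3) on the deposited counts, after filterByExpr with a minimum count of 10 and a minimum total of 15, with TMM factors and the genotype as the only term. Quasi-likelihood p-values were adjusted by Benjamini-Hochberg over the 15400 genes tested, with calls at an adjusted p under 0.05. CPM values were computed with the TMM factors. Ratios of chains in FPKM were compared by the exact permutation test over 6 libraries (two-sided). Classes and lists were described by counts and medians. The named collagens are, in each class, the 3 with the highest mean FPKM and the 3 with the smallest unadjusted p, with their partner chains, and up to 3 genes of smallest p in each partner list. Of the partner genes, Dcn, Fn1 and Itga11 were given values outside this rule. Members and lists were chosen with earlier results of these data known. Motifs were searched in RefSeq promoter windows of GRCm38.p6, each 300 bases long. Gene positions are those in the deposited files, and 42 of 44 collagens have the same start and end in GENCODE M21. The steps were tested on simulated counts.

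Other settings tried were scaling by RLE or the upper quartile, DESeq2 1.42.0, limma-voom (limma 3.58.1), 2 other filters (none, or a mean CPM of 5 or more), the replicate number as a block, and the omission of each library. The FPKM values were also tested with limma and a trend, after adding 1 or 0.1 and taking log2, over genes that reached an FPKM of 1 in 3 libraries or over all. The emphasis on the fit without WT 2, the counts of groups that do not overlap without it, and the fibroblast sum without Gsn were chosen after seeing the data.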

Additional observations from a re-analysis of the deposited data

How the results depend on the processing

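With all 6 libraries, 0 collagens were called higher or lower under RLE or upper-quartile scaling, limma-voom, either filter, the replicate block and the 3 FPKM fits. DESeq2 called 3 lower. Leaving out 1 library gave 0 to 12 collagens called higher and 0 to 5 lower, with WT 2 the only omission that gave any. Over all genes, the main fit called 3 higher and 2 lower. DESeq2 called 309 and 415. Log2(FPKM + 1) gave 6 higher, log2(FPKM + 0.1) gave 6, and log2(FPKM + 1) with no filter gave 5 higher and 1 lower. No filter on low counts gave 4 lower. Leaving out 1 library gave 1 to 1163 higher and 0 to 1435 lower. Of the partner genes, DESeq2 called 14 lower, and leaving out 1 library gave 0 to 15 higher and 0 to 21 lower. Some class medians moved, and the cause was not tested. The members differ between filters, and the filter at a mean of 5 CPM drops Col4a6 and Col9a3, which did not exceed 1.56 and 1.83 CPM in any library. Basement membrane collagens had -0.33 at the 5 CPM filter and -0.38, -0.38 and -0.15 in the FPKM fits with pseudocount 1, 0.1 and no filter. Fibril-associated collagens had 0.22 at the 5 CPM filter, 0.19 with FPKM pseudocount 1 and 0.26 with 0.1. Other collagens had 0.35 at the 5 CPM filter, 0.33 with FPKM pseudocount 0.1 and -0.0097 to 0.30 when 1 library was left out. All collagens had 0.0203 in the unfiltered FPKM fit. The collagen share of the library, SAKI minus WT, was 0.00014 percentage points of FPKM and 0.22 percentage points of TMM-normalized CPM, and the cause was not tested. Single genes that turned direction were Col6a1, at 0.0599 without WT 2, and Col5a2, at -0.0166 without WT 3, with ranges over omitted libraries of -0.32 to 0.0599 and -0.0166 to 0.36.

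The replicate numbers are not stated to pair the mice. Same-numbered libraries deviated together with correlations of 0.063 to 0.067, so the numbers were not taken as pairs, and SAKI 1 correlated best with WT 2. With the replicate block, 0 collagens were called, and over all genes 1 was called higher and 0 lower. With 3 mice a group, the lack of a call for Col4a1 or Col6a2 does not show that they did not differ.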
